A study of Homo sapiens with 21 samples.

Results

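The step between 50 and 250 nM THZ1 was examined in MDA-MB-468, an established human cell line of triple-negative breast cancer (TNBC), that is, cancer without oestrogen receptor, progesterone receptor or HER2 amplification. It rests on 4 of the 21 arrays of the series: 2 from cells given 250 nM THZ1 for 6 hours and 2 from cells given 50 nM for 6 hours. The 2 MDA-MB-468 arrays with DMSO, the solvent, placed the 50 nM level and showed what each gene did at the first dose. Other arrays of the series, all from cells kept 6 hours with DMSO, 50 or 250 nM, came from the oestrogen receptor-positive lines ZR-75-1 and T47D (2 per dose each) and from BT-549, a second TNBC line (1 per dose). No genetic change separates the groups of a line, and every group shares the serum-supplemented medium.

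THZ1 is a covalent inhibitor of CDK7, which is a subunit of the general transcription factor TFIIH. CDK7 phosphorylates the C-terminal domain of the largest RNA polymerase II subunit at promoters and, as the CDK-activating kinase, the cell cycle CDKs. At higher doses THZ1 is also known to bind CDK12 and CDK13, kinases of transcript elongation whose loss is known to lower long genes and homologous recombination genes. After a block of transcription, transcripts with short half-lives, such as those of immediate early genes and many transcription factors, fall first, whereas long-lived transcripts of ribosomal proteins or metabolic enzymes change slowly.

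Signal was close between arrays. The 75th percentile of intensity was 178.5 and 183.1 at 250 nM, against 210.2 and 208.1 at 50 nM, whereas the mean intensity was 333.7 and 340.3 at 250 nM, against 340.03 and 341.8 at 50 nM. Replicates correlated across probe sets at r = 0.995 for 250 nM and r = 0.997 for 50 nM, and probe sets are not independent replicates. Only 19 genes lay 2-fold or more apart between the 250 nM replicates and 9 between the 50 nM replicates, against 832 to 908 between a 250 nM and a 50 nM array. The labels do not say whether replicates came from separate cultures, so the spread behind each p-value, which is that between 2 arrays, may be technical. Poly-A control transcripts (lys, TagJ and TagO), whose amount added per sample is not stated, read log2 11.15 and 11.18 at 250 nM, against 10.77 and 10.80 at 50 nM, and the 28S ribosomal RNA control read log2 9.75 and 9.77 at 250 nM, against 9.51 and 9.36 at 50 nM. The 3' minus 5' difference of the actin control, a measure of RNA integrity, was log2 0.60 and 0.60 at 250 nM, against 0.67 and 0.58 at 50 nM. Fewer cells and less RNA per cell cannot be told apart in such bulk samples, and the same mass of total RNA went into each amplification.

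The cells carried the markers of the labelled line. EGFR, KRT5, KRT14 and CDH3, markers of basal TNBC lines, were above background on every MDA-MB-468 array and summed to 9643 and 9729 at 250 nM, against 10297 and 10056 at 50 nM. KRT6A, KRT6B and KRT17, also planned as basal markers, had no probe set with 1 gene symbol. Being above background did not by itself mark the line. On both 250 nM arrays, 5 of 6 luminal markers and 15 of 27 immune and stromal markers were above it too. The 6 luminal markers summed to 531 and 516 at 250 nM, against 1286 and 1381 at 50 nM. Of these, ESR1, PGR and TFF1 were low, with mean intensities at 250 nM of 29.7, 9.36 and 51.0, against 25.4, 14.2 and 44.8 at 50 nM, whereas GATA3, FOXA1 and XBP1 had means of 124, 52.2 and 257 at 250 nM, against 335, 299.8 and 614 at 50 nM. The summed intensity of 27 immune and stromal markers was 1267 and 1268 at 250 nM, against 1149 and 1148 at 50 nM. limma called none of the 15 tested markers of that list in either direction; at an unadjusted p under 0.05, 2 were higher at 250 than at 50 nM, HBB by log2 0.42 and VWF by 0.30, and their part in the results was not tested. MDA-MB-468 stands in the source field of the other 2 lines' samples, ZR-75-1 and T47D, against their titles, which were followed here. EGFR read 4216 and 4319 on the DMSO arrays of MDA-MB-468, against 57.5 and 52.5 in ZR-75-1 and 151 and 145 in T47D.

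Between 50 and 250 nM more genes fell than rose on the deposited scale. Of 12644 genes tested, 2930 (23.2%) were lower at 250 nM than at 50 nM and 725 (5.73%) were higher, at a Benjamini-Hochberg adjusted p under 0.05. A fall of 2-fold or more was called for 834 genes and of 4-fold or more for 125, whereas 1 gene, the histone gene H2BC8, was called higher by 2-fold or more. Against DMSO, 50 nM alone lowered 1844 genes (14.6%) and raised 559 (4.42%), and 250 nM lowered 3834 (30.3%) and raised 1206 (9.54%). These comparisons share arrays with each other. Without regard to the test, both 250 nM arrays lay below both 50 nM arrays for 4619 genes and above them for 3760 genes, and the groups overlapped for 4265. The median change over all tested genes was log2 -0.01 from 50 to 250 nM and -0.06 from DMSO to 50 nM.

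The number of higher genes rests on the scaling and on each array. Scaling the arrays to the lys, TagJ and TagO controls shifted the median by log2 -0.38 and left 8178 lower and 13 higher genes, and scaling to dap, phe and thr shifted it by -0.15 and left 3478 lower and 32 higher. Lower genes made up 80.2% of calls on the deposited scale, 99.8% and 99.1% under these scalings, 70.2% after median-centring and 50.2% after quantile normalization. Leaving out 250 nM array 1 or 2 left 377 or 446 higher genes, and leaving out 50 nM array 1 or 2 left 443 or 303.

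CCN1 and MYC fell furthest. CCN1, a secreted matrix-associated protein gene induced by YAP and TEAD, read 2145 and 2333 with DMSO, 1236 and 1233 at 50 nM, and 108 and 107 at 250 nM. MYC, the transcription factor gene, read 1846 and 1914 with DMSO, 1137 and 1146 at 50 nM, and 107 and 93.3 at 250 nM. In both, the 3 doses did not overlap, and most of the loss lay in the second step: the change from 50 to 250 nM was log2 -3.53 for CCN1 (SE 0.09, adjusted p = 8.5e-13) and -3.51 for MYC (SE 0.08, adjusted p = 4.9e-13), against -0.86 and -0.72 from DMSO to 50 nM. CITED2, which encodes a partner of the coactivators CBP and p300, read 53.3 and 35.8 at 250 nM, against 458 and 465 at 50 nM. FOXQ1, a forkhead transcription factor gene, read 108 and 95.3 at 250 nM, against 931 and 886 at 50 nM. PIM3, a serine/threonine kinase gene, read 73.9 and 84.3 at 250 nM, against 632 and 612 at 50 nM, and the zinc finger gene ZNF684 30.9 and 31.4 at 250 nM, against 253 and 244 at 50 nM. In each of these genes both 250 nM arrays lay below both 50 nM arrays, which was a condition for naming the most negative genes. That order held for 36.5% of all tested genes.

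The tested genes were sorted by what they did at each step. A gene was said to need the higher dose where it fell 2-fold or more from 50 to 250 nM and the whole 95% interval of its change from DMSO to 50 nM lay within 1.5-fold either way. A gene was already lost at 50 nM where it fell 2-fold or more at the first step and the whole interval of the second lay within 1.5-fold. Graded loss meant a called fall of 1.5-fold or more at both steps. Genes called higher at 50 nM and then lower at 250 nM went up then down. Genes called lower and then higher were named partly regained, whatever their final level against DMSO. The sorting gave 425 genes that needed the higher dose (3.36% of those tested), 51 already lost (0.403%), 284 with graded loss (2.25%), 251 up then down (1.99%), of which 100 (0.791%) ended called below DMSO, 142 partly regained (1.12%), and 13 (0.103%) that rose 1.5-fold or more only at the second step, with the first step's interval within 1.5-fold. Between classes, 15 genes both needed the higher dose and went up then down, and 2 were both already lost and partly regained. Since these values chose the members, their steps in MDA-MB-468 are a description. The sizes move with the scaling. Median-centring gave 28 already lost genes (23 shared with the 51) and 182 with graded loss, all among the 284, and quantile normalization and dap, phe and thr scaling gave 31 and 28 already lost (22 and 24 shared). With lys, TagJ and TagO scaling 689 genes needed the higher dose (297 shared with the 425) and 686 had graded loss, the 284 included.

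**Figure D1:**
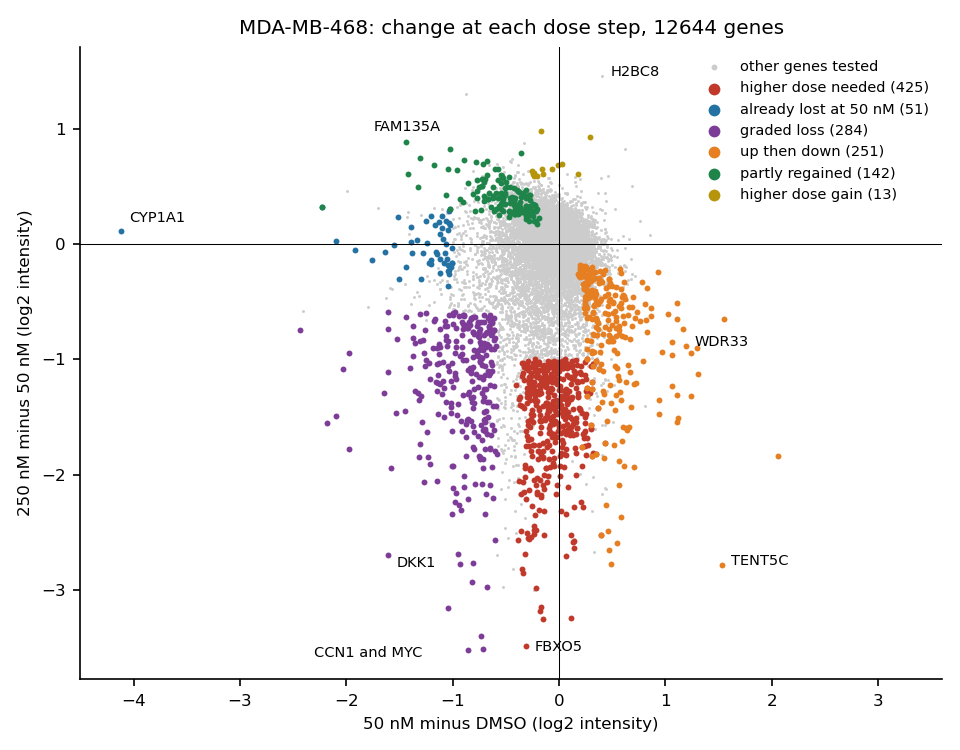
Change in log2 intensity from DMSO to 50 nM (x axis) and from 50 to 250 nM (y axis) for each of 12644 genes in MDA-MB-468, coloured by class, with the number of genes in the legend; grey points are the other genes. The 425 genes that needed the higher dose hang below the origin, the 51 already lost lie to the left with little further change, and the 251 up then down lie to the lower right; the axes share the 50 nM arrays.

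Close to the thresholds the classes are a continuum. RALGDS and WTAP, with second steps of log2 -1.001 and -1.0005, were the last members inside the 2-fold limit for the higher dose, and SOCS5 and GPR37, at -0.99996 and -0.9991, were the first outside it. INTS5 and C19orf48P, with first steps of -1.008 and -1.002, were the last already lost at 50 nM, and SETDB1 and MTRES1, at -0.997 and -0.996, the first left out. Genes were read from their brightest probe set. Of 323 genes needing the higher dose that have several probe sets, 252 had at least 1 further probe set called lower at the second step, and 20 of all 425 had a called probe set of opposite sign at 1 of the steps. Of 39 already lost genes with several, 27 had a further probe set called lower at the first step, and 4 of the 51 had an opposite one. For the up then down genes the rise had less backing: of 201 with several probe sets, 115 had a further one called lower at the second step but 47 a further one called higher at the first, and 33 of the 251 had an opposite one.

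The promoters of a leading gene of each main class are shown for orientation, from RefSeq on GRCh38.p14, 250 bases before to 50 bases after the start, 5′ to 3′ on the gene's strand. BAMBI needed the higher dose, CYP1A1 was already lost at 50 nM, DKK1 fell at both steps and TENT5C went up then down. Capitals mark matches on either strand to the TATA box TATAAA, the CCAAT box CCAAT, the cyclic AMP response element TGACGTCA, the core GCGTG of the site bound by the aryl hydrocarbon receptor, the E-box CACGTG and the CArG box of serum response factor. They lie at chr10:28677271-28677570 (+ strand) for BAMBI, chr15:74725479-74725778 (- strand) for CYP1A1, chr10:52314031-52314330 (+ strand) for DKK1 and chr1:117605798-117606097 (+ strand) for TENT5C.
BAMBI: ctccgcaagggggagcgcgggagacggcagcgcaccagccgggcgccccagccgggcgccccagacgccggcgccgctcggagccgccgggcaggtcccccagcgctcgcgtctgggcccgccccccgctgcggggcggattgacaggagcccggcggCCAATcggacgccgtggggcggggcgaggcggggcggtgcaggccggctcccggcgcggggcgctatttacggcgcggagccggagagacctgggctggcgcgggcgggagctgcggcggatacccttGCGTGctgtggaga
CYP1A1: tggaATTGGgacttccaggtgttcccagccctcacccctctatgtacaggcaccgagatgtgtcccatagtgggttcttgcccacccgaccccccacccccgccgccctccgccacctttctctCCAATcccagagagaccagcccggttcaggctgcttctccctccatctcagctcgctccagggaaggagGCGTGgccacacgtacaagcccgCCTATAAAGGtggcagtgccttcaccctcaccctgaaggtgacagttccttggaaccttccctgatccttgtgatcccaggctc
DKK1: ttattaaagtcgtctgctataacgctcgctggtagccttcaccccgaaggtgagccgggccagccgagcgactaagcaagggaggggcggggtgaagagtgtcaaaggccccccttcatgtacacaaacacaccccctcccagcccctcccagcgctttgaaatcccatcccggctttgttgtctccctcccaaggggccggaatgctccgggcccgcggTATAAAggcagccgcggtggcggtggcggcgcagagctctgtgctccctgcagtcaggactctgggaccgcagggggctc
TENT5C: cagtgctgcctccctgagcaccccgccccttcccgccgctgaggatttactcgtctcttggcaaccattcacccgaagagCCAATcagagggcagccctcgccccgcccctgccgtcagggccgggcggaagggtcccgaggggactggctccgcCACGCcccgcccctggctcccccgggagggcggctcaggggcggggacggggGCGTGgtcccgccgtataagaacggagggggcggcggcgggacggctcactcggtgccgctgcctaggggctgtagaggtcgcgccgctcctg

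CYP1A1 and DKK1 each hold a TATA box, 32 and 30 bases before the start, and the one in CYP1A1 overlaps its CArG box match. BAMBI and TENT5C hold none of these letters but each hold a CCAAT box, 92 and 170 bases before the start. Of 12644 tested genes, 10319 had a promoter in the RefSeq table, and the first listed was read for genes with several. TATAAA stood in 5.98% of promoters of genes needing the higher dose, 2.44% of those already lost, 6.36% of those with graded loss and 6.80% of those up then down, against 6.12% of all. CCAAT stood in 48.3% of graded loss promoters and 49.6% of partly regained ones, against 36.6% of all. The core GCGTG stood in 53.7% of the already lost and 59.2% of the up then down promoters, against 50.0% of all, and TGACGTCA in 2.85%, 0%, 3.81% and 4.37% of the 4 main classes, against 3.17%. The CArG box stood in 0.855%, 2.44%, 1.27% and 1.94%, against 1.04%, and CACGTG in 10.3%, 7.32%, 8.05% and 11.2%, against 9.93%. These shares are descriptions of short windows.

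FBXO5, BAMBI and PTGER4 fell furthest among the genes that needed the higher dose. FBXO5, which encodes an inhibitor of the anaphase-promoting complex, read 567 and 682 with DMSO, 513 and 489 at 50 nM, and 49.3 and 40.6 at 250 nM. BAMBI, a decoy receptor of TGF-beta and BMP signalling whose promoter is shown above, read 682 and 712 with DMSO, 613 and 643 at 50 nM, and 65.7 and 65.5 at 250 nM. PTGER4, a prostaglandin E2 receptor gene, read 255 and 275 with DMSO, 293 and 279.7 at 50 nM, and 30.4 and 29.9 at 250 nM. In these 3 the DMSO and 50 nM arrays lay close together and the 250 nM arrays lay far below both. The changes from 50 to 250 nM were log2 -3.49, -3.26 and -3.25 (SE 0.12, 0.09 and 0.10), and those from DMSO to 50 nM were -0.31, -0.15 and 0.11 (adjusted p = 0.082, 0.25 and 0.45).

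ZNF217, a zinc finger transcription factor gene that is amplified in some breast cancers, read 899.5 and 1156 with DMSO, 911 and 891 at 50 nM, and 91.9 and 107 at 250 nM. TRIB1, a pseudokinase gene, read 396 and 419 with DMSO, 372 and 351 at 50 nM, and 41.8 and 39.6 at 250 nM. TADA1, which encodes a subunit of the SAGA coactivator complex, read 322 and 397 with DMSO, 293 and 321 at 50 nM, and 42.0 and 35.9 at 250 nM. The 50 nM arrays of ZNF217 overlapped the DMSO arrays, and for all 3 genes both 250 nM arrays lay below the other 4. EIF1AD also belonged to this class although its small first step was called: it changed by log2 -0.34 at the first step (adjusted p = 0.012) and -2.82 at the second. The class median was log2 -0.08 at the first step and -1.40 at the second. Its genes had a median length of 29.2 kb, against 28.5 kb for all tested genes, and 10 of the 425 had no 250 nM array above background.

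Of the genes already lost at 50 nM CYP1A1 fell furthest. CYP1A1, a cytochrome P450 gene induced by the aryl hydrocarbon receptor, a ligand-activated transcription factor, read 579 and 597 with DMSO, 32.0 and 35.8 at 50 nM, and 36.6 and 36.4 at 250 nM. CYP1B1, a second such gene and the fourth in the class by size of fall, read 8630.1 and 8418 with DMSO, 2153 and 2353 at 50 nM, and 2172 and 2184 at 250 nM. Both fell at the first step, by log2 -4.12 and -1.92 (adjusted p = 2.3e-11 and 1.4e-11), and the 250 nM arrays then lay among or beside the 50 nM arrays, with differences of 0.11 and -0.05 that did not pass the test (adjusted p = 0.59 and 0.59). CYP1A1 stayed just above background, so a further fall at its second step could hardly have been read. CYP1B1 kept a high signal at both doses. TIPARP, another target of the receptor, read 319.7 and 323 with DMSO, 316 and 276 at 50 nM, and 79.0 and 74.2 at 250 nM and needed the higher dose. The receptor gene AHR itself read 1031 and 1047 at 250 nM, against 1813 and 1924 at 50 nM, a change of log2 -0.85 (adjusted p = 0.0001). NQO1 and CYP1A2, further genes of the pathway, differed from 50 nM by log2 0.07 and 0.12 and did not pass the test (adjusted p = 0.37 and 0.5). Of 8 tested genes of this pathway, 2 were lower from 50 to 250 nM and 2 from DMSO to 50 nM, against 23.2% and 14.6% of all tested genes, so these counts are near those shares.

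KRCC1 read 269.6 and 278 with DMSO, 57.9 and 58.7 at 50 nM, and 71.5 and 74.6 at 250 nM, and its small recovery at 250 nM was called (log2 0.32, adjusted p = 0.037; scaled to lys, TagJ and TagO it was -0.057). INTS6, a subunit gene of the Integrator complex, read 323 and 348 with DMSO, 73.2 and 83.5 at 50 nM, and 78.1 and 81.2 at 250 nM, but 1 of its other probe sets was called in the opposite direction at each step. ZNF518B read 227 and 256 with DMSO, 70.3 and 72.2 at 50 nM, and 63.5 and 65.9 at 250 nM, and ZNF610 76.8 and 84.0 with DMSO, 29.3 and 25.6 at 50 nM, and 24.7 and 29.9 at 250 nM. In these genes the DMSO arrays stood above all others, and the 50 and 250 nM arrays differed little. ZNF610 lay near background at both doses, so a further fall at its second step could not have been read. IFT70A, which encodes a protein of intraflagellar transport, had no array above background at either dose and was at least 2.14-fold lower at 50 nM than with DMSO. EFS, a docking protein gene of the Cas family, read 151 and 151 with DMSO, 51.0 and 54.5 at 50 nM, and 64.5 and 60.0 at 250 nM. The class median was log2 -1.13 at the first step and -0.05 at the second.

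Graded loss took in genes of cell death and cell cycle control. DKK1, which encodes a secreted inhibitor of WNT receptors, read 1029.8 and 1162 with DMSO, 390.5 and 328 at 50 nM, and 60.6 and 50.0 at 250 nM. FADD, the adaptor gene of death receptors, read 1013 and 1061 with DMSO, 347 and 346 at 50 nM, and 79.1 and 103 at 250 nM. CASP8AP2, which encodes a protein needed for histone transcript processing, read 493 and 628 with DMSO, 201 and 183 at 50 nM, and 60.6 and 80.2 at 250 nM. For these 3 genes no dose overlapped another, with a log2 change of -1.61, -1.58 and -1.53 at the first step and -2.70, -1.94 and -1.46 at the second (adjusted p = 5e-10, 2.1e-10 and 4.7e-06).

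Of NEDD9, E2F8 and MOCS3 no 250 nM array was above background. NEDD9, a second docking protein gene of the Cas family, read 305 and 402 with DMSO, 92.5 and 85.5 at 50 nM, and 25.9 and 26.0 at 250 nM, so it was at least 3.18-fold lower at 250 than at 50 nM. E2F8, an E2F factor gene that represses transcription, was at least 2.25-fold lower at 250 nM than at 50 nM, where it read 66.4 and 59.6, and MOCS3, of molybdenum cofactor synthesis, at least 1.67-fold lower. ZBED5 changed by log2 -1.45 and -1.45 at the 2 steps and CCDC71L by -1.32 and -1.85. Both fell at each step. The 284 genes of the class had a median length of 12.9 kb and quartiles of 5.07 and 37.1 kb, against 28.5 kb and quartiles of 11.2 and 70.4 kb for all tested genes, and 41 of them had no 250 nM array above background.

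**Figure D2:**
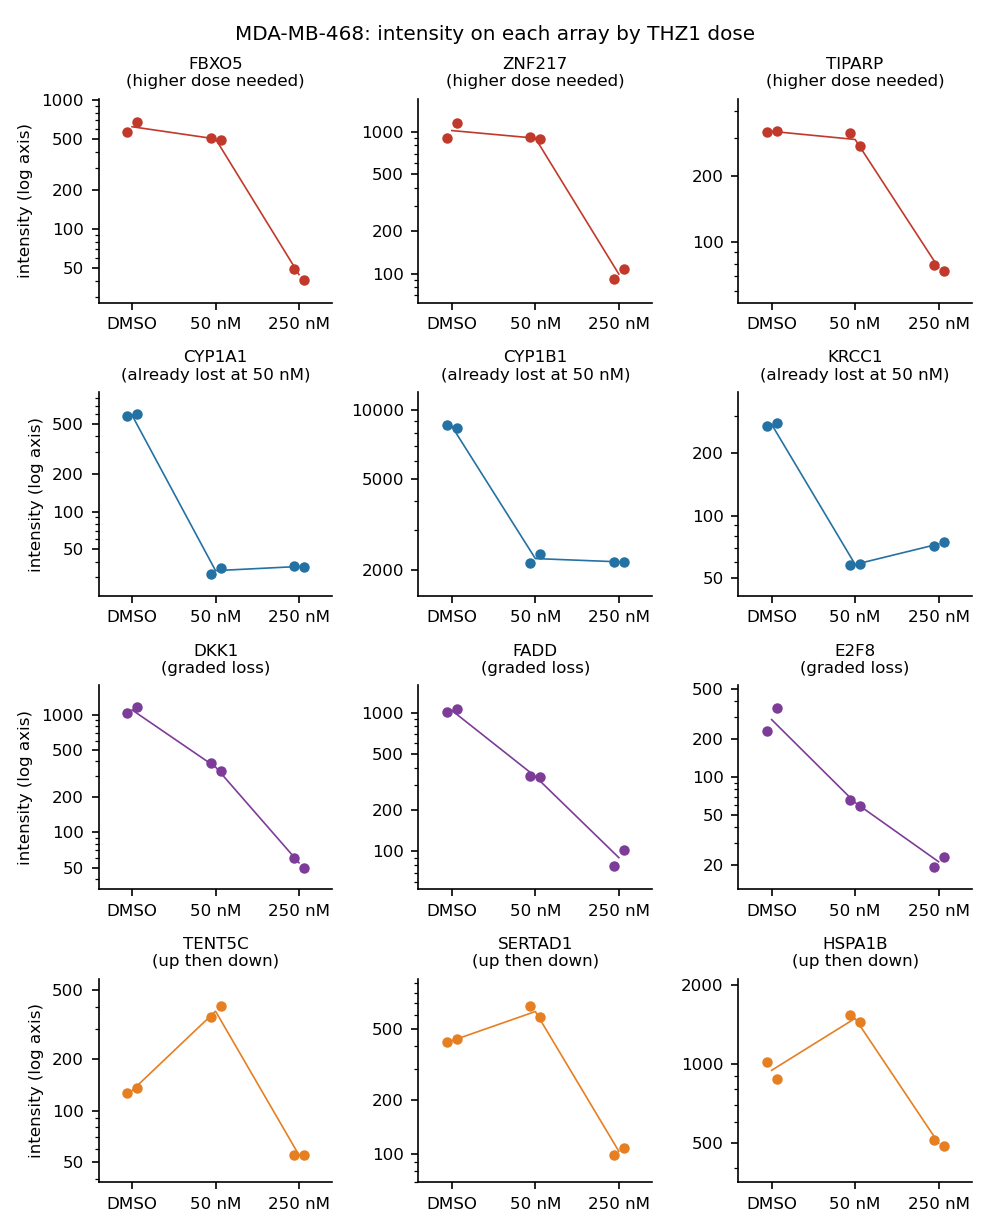
Intensity (log axis) on each MDA-MB-468 array with DMSO, 50 nM and 250 nM THZ1 for 3 genes of each of 4 classes; points are arrays (n = 2 per dose) and lines join the geometric means. FBXO5, ZNF217 and TIPARP were called lower at the second step and not at the first, CYP1A1, CYP1B1 and KRCC1 had fallen by 50 nM, DKK1, FADD and E2F8 fell at both steps, and TENT5C, SERTAD1 and HSPA1B rose at 50 nM and fell below DMSO at 250 nM.

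Genes that went up then down included regulators of transcription, stress and the cell cycle. TENT5C, which encodes a cytoplasmic poly(A) polymerase, read 126 and 135 with DMSO, 352 and 408 at 50 nM, and 55.1 and 54.8 at 250 nM. SERTAD1, which encodes a CDK4-binding coregulator, read 423 and 438 with DMSO, 669 and 587 at 50 nM, and 99.2 and 108 at 250 nM. MED26, the Mediator subunit that recruits the super elongation complex, read 869 and 865 with DMSO, 1188 and 1086 at 50 nM, and 199 and 196 at 250 nM. In each, both 50 nM arrays stood above the other 4 and both 250 nM arrays below them, and the changes were log2 1.53, 0.54 and 0.39 at the first step (adjusted p = 3.6e-05, 0.0019 and 0.0041) and -2.78, -2.60 and -2.52 at the second (adjusted p = 9.9e-09, 3.3e-11 and 4.6e-12).

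The chromatin reader gene ING1 read 783 and 547 with DMSO, 953 and 882 at 50 nM, and 142 and 125 at 250 nM. RBM15, which encodes an adaptor of the RNA m6A methyltransferase, read 1053 and 1122 with DMSO, 1504 and 1506 at 50 nM, and 268 and 212 at 250 nM. SGK1, a kinase gene induced by serum and glucocorticoids, read 290.1 and 336 with DMSO, 441 and 416 at 50 nM, and 73.7 and 79.1 at 250 nM. The order of the doses was the same in all 3, with 50 nM highest and 250 nM lowest, although the DMSO arrays of ING1 lay far apart. ZNF503 and PPM1D followed it too, at log2 0.58 and 0.44 for the first step (adjusted p = 0.041 and 0.011) and -2.37 and -2.27 for the second. HSPA1B, an inducible HSP70 chaperone gene, read 1023 and 877 with DMSO, 1542 and 1452 at 50 nM, and 511 and 485 at 250 nM, and BAG3, its co-chaperone gene, 352 and 350.4 with DMSO, 445 and 428 at 50 nM, and 228 and 225 at 250 nM. Both ended below DMSO.

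Other genes rose at 50 nM and fell again at 250 nM, to levels near, above or below DMSO. POLR2A, which encodes the largest RNA polymerase II subunit, read 365 and 369.6 with DMSO, 562 and 526 at 50 nM, and 362 and 388 at 250 nM, with the DMSO and 250 nM arrays overlapping. WDR33, of the polyadenylation machinery, read 336 and 355 with DMSO, 796 and 786 at 50 nM, and 415 and 443 at 250 nM, but 2 of its other probe sets were called lower at 50 nM. HBEGF, an EGF receptor ligand gene, and MAML1, a NOTCH coactivator gene, changed by log2 0.51 and 0.60 at the first step and -0.92 and -1.59 at the second, and both ended below DMSO. The class rests on each array of the first step: in place of 251 genes, 134 were found without DMSO array 1, 125 without 50 nM array 1 and 145 without 50 nM array 2, and in place of the 100 that ended below DMSO, 46, 47 and 58. Median-centring gave 391 up then down genes, and the lys, TagJ and TagO scaling gave 130.

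Few genes rose 1.5-fold or more at 250 nM. H2BC8 and H2AC8, genes of replication-dependent histones, read 44.0 and 35.3 with DMSO, 53.7 and 50.6 at 50 nM, and 158 and 130.5 at 250 nM for H2BC8 and 69.7 and 83.5 with DMSO, 98.4 and 88.7 at 50 nM, and 175 and 181 at 250 nM for H2AC8. SNORA65, a small nucleolar RNA, read 28.8 and 43.5 with DMSO, 54.4 and 54.5 at 50 nM, and 93.5 and 99.7 at 250 nM. Their 250 nM arrays lay above all others, at log2 1.46, 0.93 and 0.83 over 50 nM (adjusted p = 1.8e-07, 1.9e-06 and 0.00093). Lying above both 50 nM arrays was a condition for naming the most positive genes. Histone transcripts and small nucleolar RNAs mostly lack a poly(A) tail, and priming was by oligo(dT). EGR3, an immediate early transcription factor gene, read 23.5 and 28.7 with DMSO, 20.4 and 26.1 at 50 nM, and 48.6 and 42.6 at 250 nM, near background. TENM3 was above background on no array, and RLN2 and TBX3 on 1 of the 2 arrays at 250 nM and none at 50 nM. CDH2 (N-cadherin), GGN, BBOF1 and TMEM106A also rose 1.5-fold or more at 250 nM only, by log2 0.65, 0.65, 0.64 and 0.61. In GGN the 50 nM arrays were far apart, at 76.5 and 39.9. In place of these 13 genes, 7 met the rule without DMSO array 1 (5 shared) and 6 without 50 nM array 2 (4 shared). The filter took the highest group of any line, so a gene could pass it through another line or through its own 250 nM group. With the filter on MDA-MB-468 groups, 6 of the 13 remained. Scaling to dap, phe and thr left 1 of the 13, and under the lys, TagJ and TagO scaling there was 1 gene that was not among them.

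Partly regained genes fell at 50 nM and stood higher at 250 nM. Their median at 250 nM against DMSO was log2 -0.09, against -0.07 over all tested genes, so the name does not mean that each stayed below DMSO. FAM135A read 113 and 109 with DMSO, 45.0 and 37.0 at 50 nM, and 71.5 and 79.4 at 250 nM, and ABCC5, a drug efflux transporter gene, 352 and 358 with DMSO, 222 and 209 at 50 nM, and 348 and 349 at 250 nM, with 1 probe set of ABCC5 called the opposite way at each step. The 50 nM arrays were lowest in both, and the 250 nM arrays of ABCC5 came just below those with DMSO. BCL2L2, an anti-apoptotic gene, read 464 and 477 with DMSO, 317 and 307 at 50 nM, and 387 and 383 at 250 nM. SLC2A10, STPG1, GATAD1, TMTC4 and the long noncoding RNA C2orf74-DT gained log2 0.79, 0.75, 0.73, 0.71 and 0.72 from 50 to 250 nM. In place of these 142 genes, 67 met the rule without 50 nM array 2, of which 47 were among the 142. Scaling to dap, phe and thr gave 13 genes, all among the 142, quantile normalization gave 239 (94 shared), and the lys, TagJ and TagO scaling 9 (8 shared), with the change of BCL2L2 at -0.081.

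Of the growth factor response lists, immediate early and MAPK feedback genes were lowered at the second step in most members. Over all tested genes, 23.2% were lower at the second step and 14.6% at the first. In 17 of the 41 gene lists described here limma called no gene higher at 250 than at 50 nM; at an unadjusted p under 0.05, 11 of their 288 genes were higher. Of 34 immediate early genes tested, 22 were lower and 1 (EGR3) higher at 250 than at 50 nM, with a median of log2 -1.47, against -0.01 over all tested genes, and 13 were lower and 2 higher at 50 nM than with DMSO (median -0.11). ZFP36L2, which encodes an RNA-destabilizing protein, read 179 and 173 at 250 nM, against 1005 and 1049 at 50 nM, and IER5 153 and 132 at 250 nM, against 793 and 757 at 50 nM. Of 19 MAPK feedback genes, 13 were lower (median -1.06), among them DUSP4, a MAP kinase phosphatase gene (log2 -1.59), EPHA4 (-2.01), ERRFI1, an EGF receptor inhibitor gene (-1.52), and SPRY1, a Sprouty gene (-1.79). DUSP4, EPHA4 and ERRFI1 had no called first step (adjusted p = 0.11, 0.48 and 0.34). EGFR, which is amplified in MDA-MB-468, read 3501 and 3514 at 250 nM, against 4778 and 4636 at 50 nM, a change of log2 -0.42 (adjusted p = 0.00023). It was 1 of 2 lower among 8 tested ERBB receptor and ligand genes, a count near the 23.2% of all tested genes. TGFA and EGF did not pass the test, at -0.17 and -0.27 (adjusted p = 0.28 and 0.32).

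**Figure D3:**
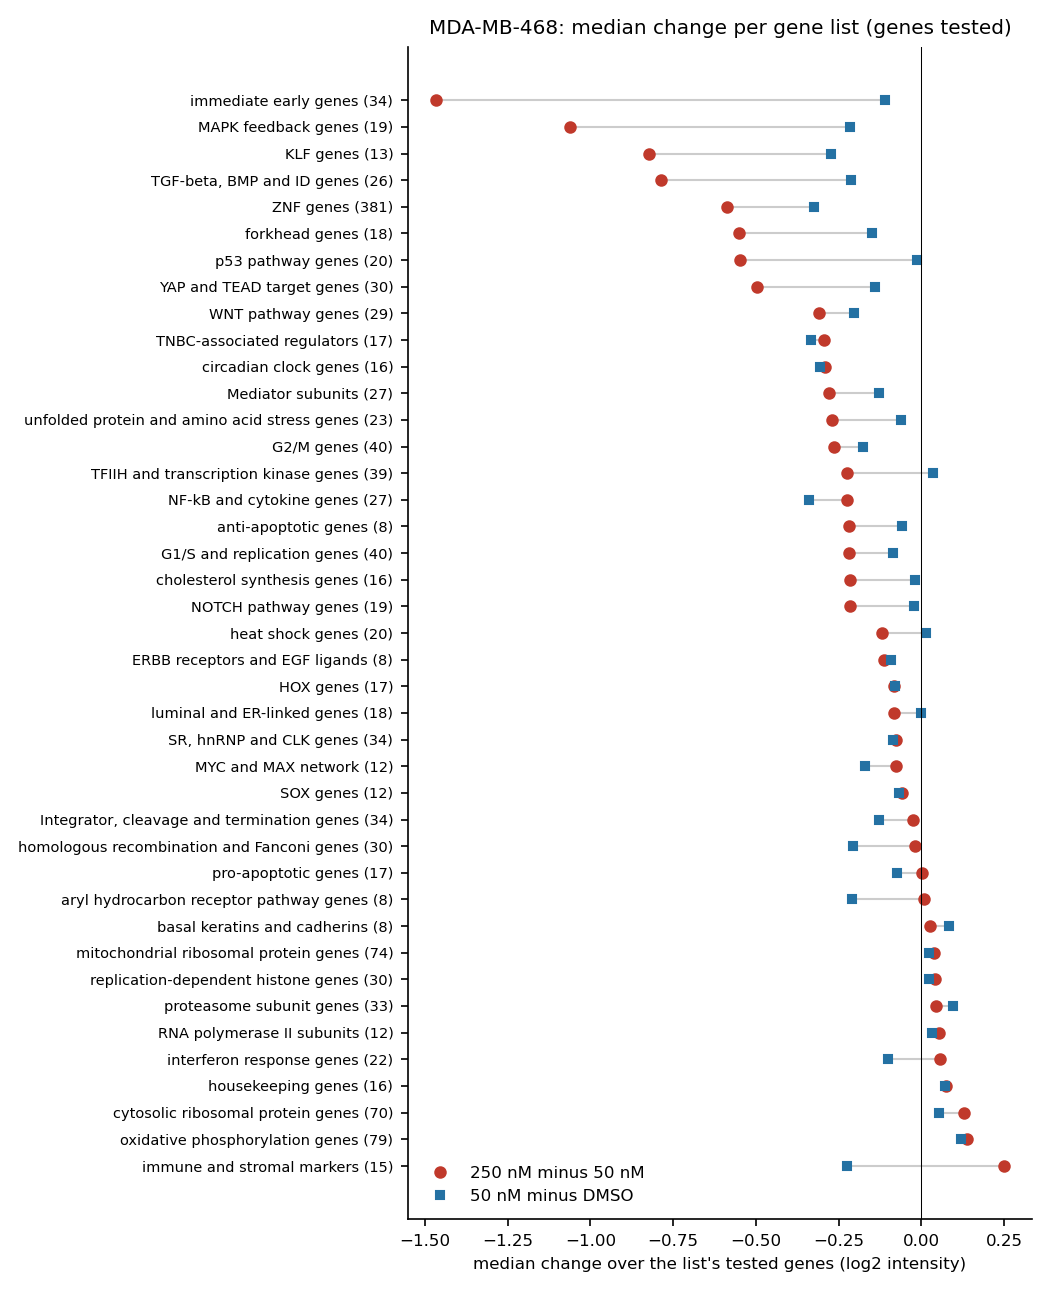
Median change in log2 intensity over the tested members of 41 gene lists (number tested in brackets) in MDA-MB-468, circles for 250 minus 50 nM and squares for 50 nM minus DMSO, which share the 50 nM arrays. Immediate early (-1.47) and MAPK feedback genes (-1.06) had the lowest medians for 250 minus 50 nM, and oxidative phosphorylation and ribosomal protein genes lay just above 0.

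Developmental signalling genes followed, beside the 23.2% of all tested genes that were lower and the 5.73% that were higher at the second step. Of 26 TGF-beta, BMP and ID genes, 17 were lower (median log2 -0.79), with TGIF1, a SMAD corepressor gene, at 115 and 112 at 250 nM, against 496 and 463 at 50 nM and ID3, an inhibitor of helix-loop-helix factors, at 117 and 123 at 250 nM, against 495 and 484 at 50 nM; ID1 changed by -1.38. WNT pathway genes were lower in 13 of 29 (median -0.31), NOTCH pathway genes lower in 9 of 19 (median -0.22), and YAP and TEAD targets lower in 16 of 30 and higher in 1 (median -0.50). ZNRF3, a ubiquitin ligase gene of WNT receptors, changed by log2 -2.09, TCF7L2, a transcription factor of the pathway, by -1.93 and FZD5, a WNT receptor, by -1.70. MAML2 changed by -1.64 and the NOTCH targets NRARP and HES1 by -0.99 and -1.02. The YAP targets AMOTL2, FJX1 and AJUBA changed by -2.31, -1.36 and -1.38. NF-kB and cytokine genes were lower in 10 of 27 and higher in 2, with a second-step median of -0.22 and a first-step median of -0.34. The NF-kB inhibitor gene NFKBIA read 83.7 and 70.7 at 250 nM, against 303 and 332 at 50 nM, IRF1 45.4 and 39.1 at 250 nM, against 149.8 and 171 at 50 nM and NFKBIZ 146 and 138 at 250 nM, against 362 and 391 at 50 nM. TNFAIP3 had no 250 nM array above background and was at least 2.07-fold lower there than at 50 nM.

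The transcription factor families are given one by one, beside the 23.2% of all tested genes that were lower, and were not tested against each other. KLF genes were lower in 10 of 13 (median log2 -0.82), forkhead genes lower in 10 of 18 (median -0.55), SOX genes lower in 3 of 12 (median -0.06), and HOX genes lower in 4 of 17 and higher in 1 (median -0.08). SOX9, a developmental factor, read 1359 and 1415 with DMSO, 1047 and 1115 at 50 nM, and 197 and 187 at 250 nM (log2 -2.49 for the second step, adjusted p = 1.9e-12), and SOX4 691 and 734 at 250 nM, against 2529 and 2523 at 50 nM. KLF5, KLF10 and KLF11 changed by -1.95, -2.24 and -1.57, and KLF4, with no 250 nM array above background, was at least 3.27-fold lower. FOXA1, GATA3 and XBP1, luminal factors present at moderate level in this line, read 50.6 and 53.8 at 250 nM, against 300.1 and 299 at 50 nM for FOXA1, 128 and 121 at 250 nM, against 347 and 324 at 50 nM for GATA3 and 261 and 252 at 250 nM, against 554 and 674 at 50 nM for XBP1. ELF3, an epithelial ETS factor gene, read 95.7 and 95.7 at 250 nM, against 729 and 778 at 50 nM. Among 17 TNBC-associated regulators 7 were lower (median -0.30), and among 18 luminal and ER-linked genes 7 were lower and 3 higher (median -0.08). HOXC6 went up then down (0.26 and -1.32). ZNF-named zinc finger genes were lower in 230 of 381 and higher in 8 (median -0.59). They made up 12% of the genes needing the higher dose, 17.6% of those already lost, 14.4% of those with graded loss and 2.39% of those up then down, against 3.01% of all tested genes.

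Genes of the transcription machinery split. Their counts stand beside 23.2% lower and 5.73% higher of all tested genes at the second step, and 14.6% and 4.42% at the first. CDK7, the target of THZ1, read 628 and 643 with DMSO, 562 and 561 at 50 nM, and 339 and 327 at 250 nM, with the 250 nM arrays below all others (second step log2 -0.75, SE 0.07, adjusted p = 6e-07). Among 39 TFIIH and transcription kinase genes 19 were lower and 1 higher (median log2 -0.23), with HEXIM1, an inhibitor of P-TEFb, at -1.38, CCNL1 at -1.14 and CDK9, the kinase of P-TEFb, at -0.77. Mediator subunit genes were lower in 14 of 27 (median -0.28), MED17 at -1.61 and MED18 at -1.20; MED9 had no 250 nM array above background and was at least 2.62-fold lower. Of 34 Integrator, cleavage and termination genes 11 were lower and 1 higher at the second step (median -0.02), and 12 lower and 5 higher at the first (median -0.13). PCF11, a termination factor gene, read 241 and 215 with DMSO, 56.0 and 55.2 at 50 nM, and 29.1 and 23.7 at 250 nM. It fell at both steps, but its 250 nM arrays lay near background, so the steps cannot be ranked by size. CLP1 read 806 and 767 with DMSO, 702 and 697 at 50 nM, and 195 and 198 at 250 nM. It was called at the second step (log2 -1.83) but not at the first (adjusted p = 0.22). CSTF1 changed by -0.57 and -1.34 at the steps. RNA polymerase II subunit genes were lower in 3 and higher in 4 of 12 (median 0.05): POLR2D changed by -0.52, and POLR2G and POLR2I by 0.25 and 0.18, which became -0.13 and -0.20 when scaled to lys, TagJ and TagO. Splicing factor genes (SR, hnRNP and CLK) were lower in 11 of 34 and higher in 4 (median -0.08), HNRNPF, CLK2, SRSF4 and SRSF5 falling by log2 0.88, 0.98, 0.74 and 0.67.

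Cell cycle genes fell in part, to be read against the 23.2% of all tested genes that were lower at the second step. G2/M genes were lower in 19 of 40 and higher in 1 (median log2 -0.26), and G1/S and replication genes lower in 20 of 40 and higher in 1 (median -0.22). WEE1, a kinase gene that holds CDK1 inactive, read 1058 and 1059 with DMSO, 678 and 739 at 50 nM, and 111 and 107 at 250 nM. AURKA, a mitotic kinase gene, read 1632 and 1731 with DMSO, 1343 and 1266 at 50 nM, and 495 and 495 at 250 nM, and CDKN1B, which encodes the CDK inhibitor p27, 496 and 464 with DMSO, 252 and 293 at 50 nM, and 31.0 and 40.9 at 250 nM. All 3 fell at both steps, more at the second. KIF18A, CDC25A, E2F3 and MCM10 changed by -1.09, -1.54, -1.65 and -0.90. CCND1, cyclin D1, read 1481 and 1516 with DMSO, 1201 and 1214 at 50 nM, and 997 and 925 at 250 nM, with changes of log2 -0.31 and -0.33 (adjusted p = 0.0012 and 0.0003). Homologous recombination and Fanconi genes were lower in 13 of 30 and higher in 1 at the first step (median -0.21), and lower in 5 at the second (median -0.02). The shares over all tested genes were 14.6% lower at the first step and 23.2% at the second, so the second count lies below its share. PALB2, a partner of BRCA2, read 225 and 210.1 with DMSO, 113 and 124 at 50 nM, and 36.8 and 37.3 at 250 nM and fell at both steps. FANCE and FANCB changed by -0.66 and -0.43 at the second step, and FANCM, with no 250 nM array above background, was at least 1.40-fold lower.

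Stress and survival genes were lower in different shares of each list, to be read against the 23.2% of all tested genes that were lower at this step. MDA-MB-468 carries mutant p53. Of 20 p53 pathway genes 12 were lower and 1 higher (median log2 -0.55), with SESN2 at 121 and 125 with DMSO, 142 and 145 at 50 nM, and 37.1 and 38.4 at 250 nM and SESN1 and GADD45A changing by -1.06 and -0.63. Heat shock genes were lower in 5 of 20, close to that share, and higher in 2 (median -0.12), DNAJB1, an HSP70 co-chaperone gene, at 1232 and 1478 with DMSO, 1145 and 1148 at 50 nM, and 181 and 222 at 250 nM and DNAJA1 changing by -0.53. Genes of the unfolded protein and amino acid stress responses were lower in 13 of 23 and higher in 1 (median -0.27), among them DNAJB9 (-1.96) and DDIT4 (-2.37). MCL1, a short-lived anti-apoptotic BCL2 family gene, read 2742 and 2472 with DMSO, 2524 and 2507 at 50 nM, and 743 and 587 at 250 nM, with no called first step (adjusted p = 0.74) and a second step of log2 -1.93 (SE 0.09, adjusted p = 1.2e-10). BCL2L1 and BIRC2 changed by -0.37 and -0.21, and anti-apoptotic genes were lower in 3 and higher in 1 of 8 (median -0.22). Of 17 pro-apoptotic genes 7 were lower and 1 higher (median 0.00): BBC3, which encodes PUMA, read 49.2 and 47.7 at 250 nM, against 220.3 and 193 at 50 nM, BCL2L11, which encodes BIM, 85.0 and 87.6 at 250 nM, against 242 and 209.8 at 50 nM, BIK 142 and 169 at 250 nM, against 291 and 349 at 50 nM and TNFRSF10A, a TRAIL receptor gene, 62.8 and 75.9 at 250 nM, against 111 and 109 at 50 nM. MYC and MAX network genes were lower in 5 of 12 (median -0.08), with MAX, MXD1 and MGA at -0.43, -0.70 and -0.32. Circadian clock genes were lower in 7 of 16 (median -0.29), NFIL3, CIART, BHLHE40 and TEF at -1.65, -1.79, -1.30 and -1.01. Cholesterol synthesis genes were lower in 6 of 16 (median -0.22), with the regulators INSIG1 and INSIG2 at -1.44 and -0.75 and the enzymes SQLE and IDI1 at -0.60 and -0.63.

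Genes of basic metabolism and structure had medians near 0 on the deposited scale, where 23.2% of all tested genes were lower and 5.73% higher. Oxidative phosphorylation genes were lower in 1 of 79 and higher in 27 (median log2 0.14), cytosolic ribosomal protein genes higher in 18 of 70 (median 0.13), and replication-dependent histone genes higher in 7 of 30 (median 0.04); under scaling to lys, TagJ and TagO these became 53 lower and 0 higher, 57 and 0, and 15 and 2, with medians of -0.24, -0.25 and -0.34. RPS27 and RPL26, ribosomal proteins, changed by 0.21 and 0.27 on the deposited scale and by -0.17 and -0.11 under that scaling. For ATP5MK and COX4I1, of ATP synthase and cytochrome oxidase, the values were 0.27 and 0.18 against -0.11 and -0.20 under it. Mitochondrial ribosomal protein genes were lower in 13 of 74 and higher in 9 (median 0.04), and MRPS30 (-1.25) and MRPL44 (-0.98) fell. Proteasome genes were lower in 2 and higher in 2 of 33 (median 0.04), and interferon response genes lower in 2 and higher in 4 of 22 (median 0.06), ISG20 rising by log2 0.48 on the deposited scale. Under scaling to lys, TagJ and TagO the lower genes numbered 62 of 74 for mitochondrial ribosomal proteins, 32 of 33 for the proteasome, 9 of 22 for the interferon response, 15 of 16 for the housekeeping genes and 11 of 12 for RNA polymerase II subunits, and 0 were higher in each. IFIT5 had no 250 nM array above background and was at least 1.41-fold lower. Of 16 housekeeping genes 2 were lower, TBP (-1.14) and SDHA (-0.19), and 2 higher, PKM (0.26) and B2M (0.13). Of 8 basal keratins and cadherins limma called 0, and 0 at an unadjusted p under 0.05 (median 0.03), with KRT5 at 4434 and 4218 at 250 nM, against 3629 and 3647 at 50 nM and CDH1 at 1432 and 1533 at 250 nM, against 1694 and 1593 at 50 nM. FOSL1, an AP-1 gene, read 61.3 and 58.1 at 250 nM, against 58.6 and 55.2 at 50 nM and did not pass the test (adjusted p = 0.8).

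The classes were also read in the other lines, whose dose steps did not define them. The choice was not fully separate: ZR-75-1 and T47D arrays entered the shared spread, and all lines entered the filter and probe set choice. A fit to the MDA-MB-468 arrays alone kept 401 of the 425 genes needing the higher dose and 179 of the 251 up then down. The step from 50 to 250 nM lowered 5277 genes (41.7%) and raised 839 (6.64%) in ZR-75-1, and lowered 3439 (27.2%) and raised 580 (4.59%) in T47D. Of the 425 genes that needed the higher dose in MDA-MB-468, 417 were lower at 250 than at 50 nM in ZR-75-1 and 405 in T47D, with medians of log2 -1.67 and -0.88, against -0.17 and -0.05 over all tested genes. In BT-549, which has 1 array per dose and no test, 412 of the 425 were lower (median -1.06, against 0.03 over all genes). By the same count 5611 of all tested genes (44.4%) were lower in BT-549, and the counts for that line stand beside this share. Of the 251 up then down genes, 210 were lower at this step in ZR-75-1 and 117 in T47D, and 227 were lower in BT-549 without a test. The 51 already lost genes stood lower in BT-549 at 50 nM too, at a median of log2 -0.98 against DMSO (-0.04 over all tested genes). Their median from 50 to 250 nM there was 0.26 (0.03 over all tested genes). In the oestrogen receptor-positive lines 45 of the 51 in ZR-75-1 and 34 in T47D were called lower from 50 to 250 nM (medians -1.04 and -0.58). Graded loss genes were lower in ZR-75-1 in 266 and in T47D in 264 of 284. Of 142 partly regained genes, 12 were higher in ZR-75-1 and 11 in T47D, and 59 and 20 were lower, while 11 were lower in BT-549 without a test (median 0.29).

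**Figure D4:**
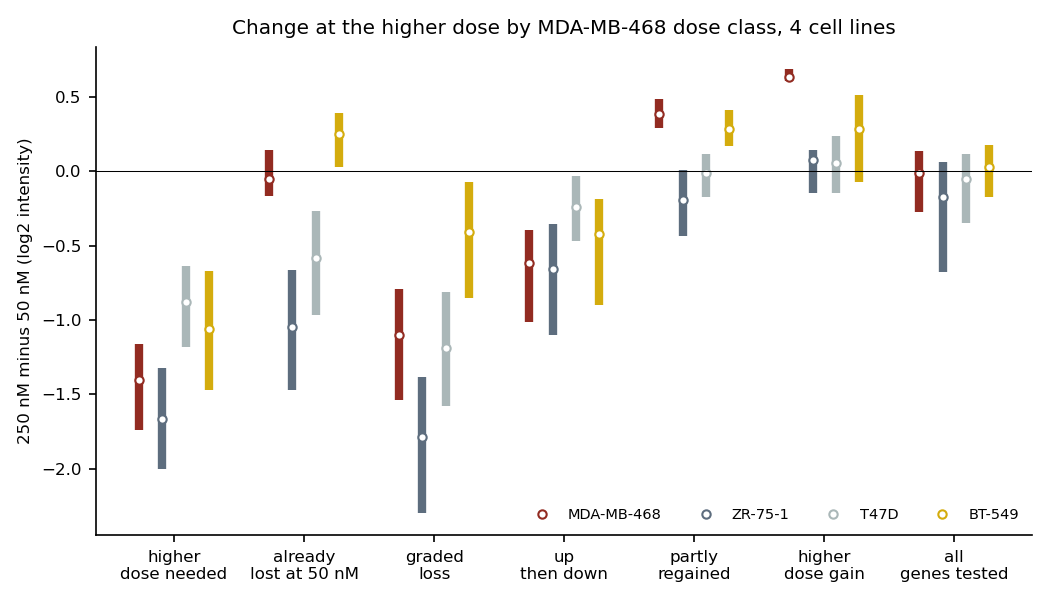
Change in log2 intensity from 50 to 250 nM for the genes of each MDA-MB-468 class and for all tested genes in MDA-MB-468, ZR-75-1, T47D and BT-549; circles are medians over genes and bars run from the first to the third quartile of genes. The MDA-MB-468 values chose the classes; genes needing the higher dose lie below 0 in all 4 lines, and those already lost lie near 0 in MDA-MB-468, above 0 in BT-549 and below 0 in ZR-75-1 and T47D.

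The step itself was tested between lines, by subtracting the average change of the oestrogen receptor-positive lines ZR-75-1 and T47D. It was more negative in MDA-MB-468 for 386 genes (3.05%) and more positive for 2055 (16.3%), with a median difference of log2 0.09; without 50 nM array 1 there were 257 more negative genes. The more positive genes numbered 1153 after median-centring, 1285 after quantile normalization and 4079 with lys, TagJ and TagO scaling, and the more negative ones 581 after quantile normalization, 171 with lys, TagJ and TagO and 152 with dap, phe and thr scaling. FOXQ1 fell by log2 3.16 in MDA-MB-468, against changes of 0.00 in ZR-75-1 and 0.10 in T47D, a difference of -3.21 (SE 0.20, adjusted p = 1.3e-07). CCN2, a YAP target like CCN1, read 247 and 226 at 250 nM, against 1143 and 1084 at 50 nM in MDA-MB-468 and differed by -2.40. CCN1, ADAMTS1, ZFP42, BBC3, SGK1 and KLF5 differed by -1.99, -1.94, -1.86, -1.82, -1.82 and -1.80. Whether these genes stood above background in ZR-75-1 and T47D was not examined, and a gene near background can show no fall. In the other direction ZCCHC14 changed by -0.28 in MDA-MB-468, against -2.15 in ZR-75-1 and -1.82 in T47D, and had lost log2 0.99 by 50 nM. SMG8, a gene of nonsense-mediated decay, HEY2, a NOTCH target, and KAT14 were likewise lower at 50 nM than with DMSO in MDA-MB-468 (-0.93, -0.69 and -1.997) and had second steps of 0.08, 0.31 and 0.46, none of them called (adjusted p = 0.76, 0.11 and 0.1). EGR3 and TBX3 differed by 2.14 and 2.05, TBX3 with no 50 nM array of MDA-MB-468 above background. KAT14 and TBX3 each had 1 further probe set called lower at the second step. GSC and ZNF114 were above background on no MDA-MB-468 array, so no step could be read there, and their calls rest on the changes in ZR-75-1 (-2.26 and -2.18) and T47D (-1.33 and -0.58).

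**Figure D5:**
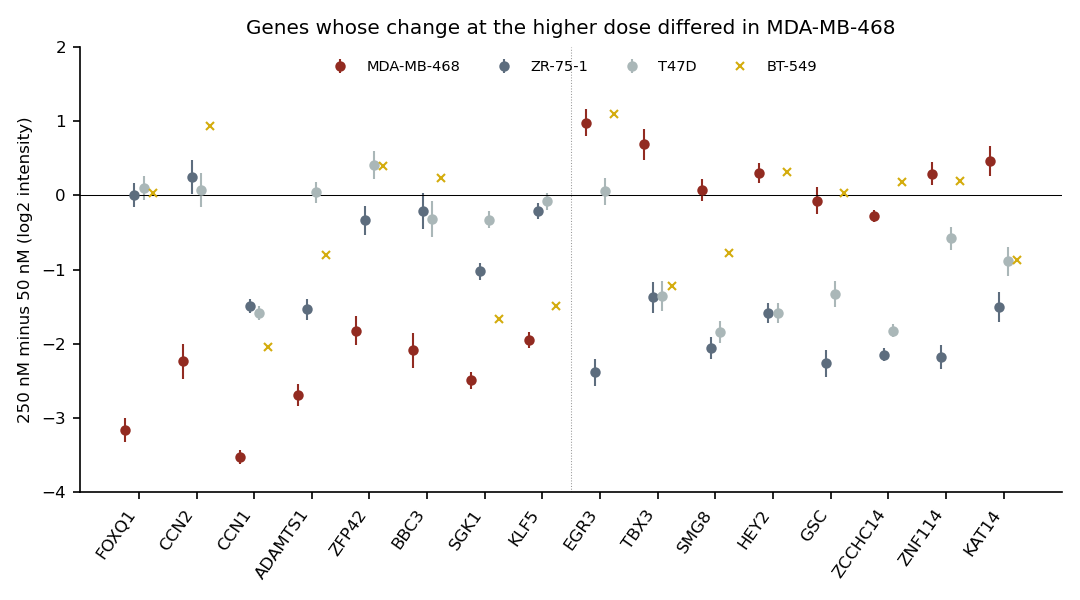
Change in log2 intensity from 50 to 250 nM, by line: MDA-MB-468, ZR-75-1 and T47D (circles with the standard error of the fit, 2 arrays per dose) and BT-549 (crosses, 1 array per dose) for the 8 genes per direction with the largest difference of MDA-MB-468 from the average of the oestrogen receptor-positive lines. FOXQ1 and CCN2 lie far below 0 in MDA-MB-468 and near or above 0 in the other lines, whereas the 8 genes on the right lie below 0 in ZR-75-1.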

How the data were processed

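Total RNA was measured on 21 PrimeView 3' expression arrays. The deposited unit is intensity per probe set on a linear scale, and per the submitters' processing notes the authors used MAS5, with no version. The scaling between arrays was not given in the sources used here. Per the labels' protocols ERCC RNA was spiked in by cell count, but no probe set of the table is named for it, so the planned scaling used the 7 probe sets of the poly-A controls lys, TagJ and TagO.

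Intensities (0.932 to 28797) below 1 were set to 1, and log2 was taken with no further scaling. Of 49395 probe sets, 44994 had 1 gene symbol in the platform annotation, 1832 several and 2569 no entry. A gene was its brightest probe set over all arrays. Of 18132 genes, 12644 were tested, those with a group mean at or above the median intensity of the table, 57.4. A model of 9 group means was fitted with limma 3.58.1 (R 4.3.3; eBayes with trend, 9 residual degrees of freedom) to the 18 arrays of MDA-MB-468 and the oestrogen receptor-positive lines, with Benjamini-Hochberg adjustment within each contrast, and the code was tested on simulated data. With 2 arrays per group, their number limits the precision. A group with no array above background, the mean of 23 background probe sets on that array, has only a bound. Its fold ("at least") was computed with each array at background or at the gene's own value if higher, a step chosen after seeing the data. BT-549 was not tested.

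The most negative and most positive changes were taken only from called genes whose 250 nM arrays both lay beyond both 50 nM arrays. The genes named are the 12 most negative and 8 most positive such changes from 50 to 250 nM, 8 per class and per direction between lines, up to 4 per gene list and 9 fixed genes, of which FOXC1 was under the filter. Of the genes this rule names, 2 are not reported here. Other genes were named for standing at a class threshold, as markers or in a count of 5 or fewer. The members, classes and 41 gene lists were chosen with earlier results of these data known. Alternatives were other scalings, filters, floors and probe set rules, the MDA-MB-468 arrays alone, a replicate block and each array left out.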

Additional observations from a re-analysis of the deposited data

Results flagged for a closer look

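The step from 50 to 250 nM differed between lines by the fitted test of the difference, MDA-MB-468 minus the mean of ZR-75-1 and T47D, for 386 genes in the negative and 2055 genes in the positive direction. Groups of 2 arrays were too small for a test of single outlying arrays. In the negative direction the differences were log2 -3.21 for FOXQ1, -2.40 for CCN2, -1.99 for CCN1, -1.94 for ADAMTS1, -1.86 for ZFP42, -1.82 for BBC3, -1.82 for SGK1 and -1.80 for KLF5. In the positive direction they were 2.14 for EGR3, 2.05 for TBX3, 2.03 for SMG8, 1.89 for HEY2, 1.72 for GSC, 1.71 for ZCCHC14, 1.67 for ZNF114 and 1.66 for KAT14. No MDA-MB-468 array of GSC or ZNF114 was above background, nor was a 50 nM array of TBX3, so these 3 differences hold no fully measured step in MDA-MB-468. Of the negative genes, BBC3 changed from 50 to 250 nM by log2 -2.09 in MDA-MB-468, against -0.21 in ZR-75-1 and -0.31 in T47D, and KLF5 by -1.95 in MDA-MB-468, against -0.21 and -0.08 in those lines. The signal of the negative genes in ZR-75-1 and T47D was not set against background. Of the positive genes, KAT14 had 1 further probe set called the opposite way in MDA-MB-468 at this step, and so had TBX3.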

How the results depend on the processing

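The cause of the following moves was not tested. Under lys, TagJ and TagO scaling there were 8178 lower and 13 higher genes, 689 needing the higher dose, 686 with graded loss, 130 up then down, 9 partly regained and 1 with a gain only at the higher dose, and between lines 171 genes more negative and 4079 more positive in MDA-MB-468. Scaling to dap, phe and thr, added after seeing the data, gave 32 higher genes, 28 already lost, 13 partly regained, 1 gain and 152 more negative. Quantile normalization gave 2352 higher, 31 already lost, 239 partly regained, 58 gains, 581 more negative and 1285 more positive. Median-centring gave 28 already lost, 182 graded, 391 up then down, 34 gains and 1153 more positive. Gains numbered 6 with the filter on MDA-MB-468 groups, 4 with 16 added and 5 with the mean of all probe sets.

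Leaving out each of the 6 MDA-MB-468 arrays in turn gave 2391 to 2942 lower and 303 to 741 higher genes, 340 to 450 needing the higher dose, 38 to 67 already lost, 247 to 307 graded, 125 to 252 up then down (46 to 101 below DMSO), 67 to 105 partly regained, 6 to 18 gains, 257 to 382 more negative and 1374 to 2075 more positive. A lone array was assumed to vary like the other groups.

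The main fit did not pair the arrays by replicate number. Deviations of same-numbered 250 and 50 nM arrays correlated at 0.0125, and those of 50 nM and DMSO arrays at 0.0252. Those of 250 nM and DMSO arrays correlated at 0.291, and whether these shared a replicate effect was not tested. With a replicate block 3001 genes were lower and 817 higher, and 440 needed the higher dose, 52 were already lost, 270 went up then down and 171 were partly regained.

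Of values of single named genes over these settings, 3763 kept their side of the threshold, and the called ones among them kept their direction. Another 176 lost the call, 17 gained it, and 19 values called on the deposited scale reversed. Direction was not compared for values not called on the deposited scale. Scaled to lys, TagJ and TagO, the changes from 50 to 250 nM became log2 -0.057 for KRCC1, -0.081 for BCL2L2, -0.13 for POLR2G, -0.20 for POLR2I, -0.17 for IFITM2, -0.12 for PKM, -0.25 for B2M, -0.17 for RPS27, -0.19 for RPS15, -0.21 for RPL6, -0.11 for RPL26, -0.11 for ATP5MK, -0.14 for NDUFA3, -0.20 for COX4I1, -0.18 for ATP5PO, -0.20 for PSMB4 and -0.25 for PSMB7, and scaled to dap, phe and thr they became -0.019 for B2M and -0.016 for PSMB7. Signal close to background limits CYP1A1, NEDD9, E2F8, MOCS3, KLF4, EGR3, TBX3, RLN2, PCF11 and ZNF610.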
